A study of Mus musculus with 44 samples.

Results

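The genes described here carry signals from Toll-like receptors (TLRs) to NF-κB and to interferon genes in macrophages. They are the 4 adaptors Myd88, Tirap, Ticam1 and Ticam2, the 2 TRAF family members Traf6 and Traf3, the 2 IRAK family members Irak2 and Irak3, and the 2 kinases Tbk1 and Ikbke. These 10 genes were chosen by symbol from the 24940 genes listed in each of 4 count tables, and each of the 10 was found in every table and passed the filter on low counts in each.

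TLRs have no enzyme of their own and signal through adaptors that dock on their cytoplasmic TIR domain. Surface TLR4, which binds lipopolysaccharide, uses TIRAP to bring in MYD88 and TICAM2 (TRAM) to bring in TICAM1 (TRIF), whereas endosomal TLR3, which binds double-stranded RNA, uses TICAM1 alone. MYD88 assembles the IRAK kinases, which activate the ubiquitin ligase TRAF6 and through it NF-κB. TICAM1 engages TRAF3 and the kinases TBK1 and IKKε (Ikbke), which phosphorylate IRF3 and so turn on interferon β. RANK, the receptor for RANKL on osteoclast precursors, also signals through TRAF6.

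The RNA came from BMDMs (bone marrow-derived macrophages), which are grown in culture from marrow, here of C57BL/6 mice 8 to 12 weeks old. The 44 libraries formed 22 groups of 2. The NCoR table held NCoR flox/flox BMDMs (WT) and NCoR flox/flox, LysMCre BMDMs (NKO), each given vehicle (Veh), KLA, PolyIC, IFNb or IL4 for 6 h or RANKL for 12 h. The RGFP966 table held wild-type BMDMs with Veh, KLA, or KLA with RGFP966, an inhibitor of the deacetylase HDAC3. The Pgc1b table held Pgc1b flox/flox BMDMs without and with LysMCre, each with Veh or KLA. The TBK1i table held wild-type BMDMs with DMSO and vehicle, DMSO and KLA, or KLA with the TBK1 inhibitor GSK8612 (TBK1i). By the study's methods, BMDMs were starved in low serum for 12 h before the ligands. The inhibitors were given at the same time as that starvation. KLA (Kdo2 lipid A) activates TLR4 and poly I:C (PolyIC) mimics double-stranded RNA. Cre under the LysM promoter acts in myeloid cells, so deletion is limited to that lineage and need not be complete. Ncor1 encodes NCoR, a corepressor that carries HDAC3, and Ppargc1b encodes the coactivator PGC1β.

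Gene counts per library ranged from 8323493 to 16783155. Replicates of a group correlated at r of 0.992 or above on the log scale, and all 22 pairs differed by more than sampling noise. The sample records do not say whether replicates came from separate animals or cultures, so p-values measure only the spread between these samples, which may be technical. Ncor1 was lower in NKO than WT in all 6 conditions, at 56.4 and 57.6 CPM (counts scaled to an effective library size, the total over the genes tested times the TMM factor of that library) against 162 and 169 with vehicle. Ppargc1b did not follow its label, with 10.3 and 8.74 CPM in KLA libraries labelled Pgc1b flox/flox, LysMCre, against 7.81 and 6.78 in Pgc1b flox/flox. The difference was 0.38 on the log2 scale (adjusted p = 0.275), and counts over all exons do not test a deleted part alone. The study examined PGC1β protein in BMDMs of both genotypes by immunoblot, and these RNA counts do not bear on protein. Lyz2, the gene that carries the Cre, was 4533 and 4393 against 8049 and 8292 CPM. By the date stamps in library names, WT_KLA was made 115 days before WT_Veh, NKO_KLA 1516 days before WT_Veh, and both RANKL groups 536 days before it. The other groups of the NCoR table shared 1 stamp, and in each of the other tables KLA and vehicle shared a stamp. TMM factors differed between ligands, at 1.20 and 1.19 in WT_Veh, 0.722 and 0.721 in WT_KLA and 0.767 and 0.763 in WT_PolyIC, and likewise between vehicle and KLA in the other tables. TMM takes most genes as unchanged. Scaling to total counts alone, an alternative chosen after seeing the data, moves the median over all genes by -0.73 for KLA against vehicle in WT, -0.64 for poly I:C, -0.11 for IFNβ, 0.089 for RANKL and -0.0038 for IL4 on the log2 scale. Directions given below hold relative to the TMM scale, and values on total counts are given where a call or a direction changes. The libraries also fell into 2 sexes by Xist and Y-linked counts, with NKO_KLA and the 8 Pgc1b libraries on one side and the other 34 on the other. At KLA, genotype, stamp and sex therefore cannot be told apart between NKO and WT. With RANKL against vehicle, ligand, time and stamp cannot be told apart either. Cell preparation may differ there too, since the column names of the RANKL libraries call the cells osteoclasts, and it cannot be separated from the ligand.

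Marker genes were read for cell types that a culture could hold. The 6 macrophage markers were detected in every group, at a summed level of 4472 to 9698 CPM. The 4 neutrophil markers summed to 389 and 414 CPM in WT_RANKL and 583 and 587 in NKO_RANKL, with all 4 detected, against 1.23 and 2.55 in WT_Veh, where Ly6g and Mpo were at 0. The 3 fibroblast markers summed to 71.6 and 79.2 CPM in WT_Veh, 0.655 and 1.17 in WT_KLA (Col1a1 and Col1a2 at 0) and 168 and 188 in WT_RANKL. Where KLA and vehicle share a stamp, no such fall was seen. They were 40.0 and 40.8 in DMSO_Veh against 34.7 and 36.5 in DMSO_KLA. In the RGFP966 table they were 0 and 0.328 in Veh against 0.742 and 1.53 in KLA. In Pgc1b flox/flox they were 0.0671 and 0.0811 with vehicle against 0.251 and 1.56 with KLA. The 3 endothelial markers, led by Kdr, summed to 7.70 and 8.96 CPM in WT_Veh, 187 and 199 in WT_KLA and 285 and 301 in WT_PolyIC, and were 3.71 and 5.08 in TBK1i_KLA against 123 and 131 in DMSO_KLA. The column names of the RANKL libraries call the cells osteoclasts. The 4 osteoclast markers summed to 73.6 and 74.5 CPM in WT_RANKL against 45.3 and 54.1 in WT_Veh, but to 96.9 and 104 in NKO_RANKL against 125 and 129.8 in NKO_Veh. With KLA they were 67.1 and 70.3 in WT_KLA and 58.3 and 64.1 in NKO_KLA. They were 107 and 111 in KLA against 43.2 and 47.5 in Veh of the RGFP966 table. DMSO_KLA had 154.7 and 155.5 against 42.9 and 43.5 in DMSO_Veh. A rise in these markers was therefore not particular to RANKL. In bulk samples fewer cells of a type and less RNA per cell cannot be told apart, and the part of these markers in the results was not tested.

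The promoter stretches below are shown because they sit at the start sites of Myd88, Ikbke and Irak3, which rose with KLA, and of Traf3, which rose with RANKL. Each stretch covers 145 bases before the annotated start and the first 5 bases of the transcript, from RefSeq on GRCm38.p6. Capitals mark a match to searched letters. These are the letters of an interferon-stimulated response element (ISRE) in Myd88 and of a κB element in Traf3. In Ikbke they are TGANTCA, searched for AP-1 with any base allowed at N. Irak3 has no match to any of the 3.
Myd88, chr9:119340014-119340163, minus strand: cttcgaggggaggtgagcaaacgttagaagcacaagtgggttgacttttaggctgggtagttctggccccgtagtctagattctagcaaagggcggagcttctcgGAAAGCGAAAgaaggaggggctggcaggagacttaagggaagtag
Ikbke, chr1:131279559-131279708, minus strand: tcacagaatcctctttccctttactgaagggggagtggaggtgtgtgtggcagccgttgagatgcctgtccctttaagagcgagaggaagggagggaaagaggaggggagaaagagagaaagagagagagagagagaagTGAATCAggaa
Traf3, chr12:111166225-111166374, plus strand: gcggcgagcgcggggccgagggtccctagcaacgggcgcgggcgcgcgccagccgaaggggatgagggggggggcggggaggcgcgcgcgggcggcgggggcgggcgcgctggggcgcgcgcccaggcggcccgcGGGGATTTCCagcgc
Irak3, chr10:120201593-120201742, minus strand: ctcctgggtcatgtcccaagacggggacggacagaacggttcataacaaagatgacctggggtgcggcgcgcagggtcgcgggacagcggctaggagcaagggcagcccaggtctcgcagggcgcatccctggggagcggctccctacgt
RefSeq promoters were at hand for 9 of the 10 genes, Ticam2 being the other, and were searched on both strands over 300 bases. The letters were GAAANNGAAA for the ISRE and TGANTCA for AP-1, with the κB consensus by name. No match overlapped one of another motif. Over 32851 promoters of the same length, 3.44% held the ISRE letters, 7.81% the AP-1 letters and 4.51% a κB element, and among the 9 genes each motif was found in 1. Tirap, Ticam1, Traf6, Irak2 and Tbk1 had no match in this window. A match describes letters and says nothing on its own of a factor's binding.

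In unstimulated WT BMDMs the genes differed widely in level when scaled by transcript length. Ikbke (42.6 ± 2.84 RPKM, SD, n = 2) and Myd88 (41.1 ± 3.96 RPKM) were at the top and did not differ beyond their spread, followed by Tbk1 (31.4 ± 1.54 RPKM). Irak2 was at 21.1 ± 0.218 RPKM, Ticam1 at 16.5 ± 1.28 and Ticam2 at 15.9 ± 2.02, the last 2 of these within their spread. Irak3, which lacks kinase activity and restrains MYD88 signalling, was at 10.7 ± 0.717 RPKM. The lowest were Tirap (6.63 ± 0.837 RPKM), Traf6 (6.06 ± 0.173) and Traf3 (4.57 ± 0.573), of which the first 2 did not differ beyond their spread. After KLA the order of means became Myd88 (282 ± 4.35 RPKM), Ikbke (208 ± 7.39), Irak2 (152 ± 5.52), Irak3 (98.8 ± 5.48) and Tbk1 (96.3 ± 4.80), the last 2 again within their spread. Ticam1, Ticam2, Tirap, Traf6 and Traf3 followed in the same relative order as before, at 37.2 ± 1.40, 28.9 ± 1.68, 14.1 ± 0.675, 8.83 ± 1.02 and 6.33 ± 1.01 RPKM. Positions of the genes on mm10 are given with their responses.

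Relative to the TMM scale, KLA raised most of these genes in WT BMDMs, poly I:C raised a smaller set and lowered Irak3, and IFNβ and IL4 moved few of them. A gene was called, and is said to have risen or fallen, when its adjusted p (edgeR quasi-likelihood test, Benjamini-Hochberg over all genes tested) was below 0.05 and its fold change above 1.5. With KLA against vehicle 8 of 10 were called higher, against 25.4% of all genes, and the other 2 were not called, with lower calls at 32.3% of all genes. The median log2 fold change was 1.39 over the members and -0.14 over all 13407 genes tested. With poly I:C 6 of 10 were called higher (22.2% of all genes) and 1 lower (25.0%), and the median was 0.76 against -0.07. With RANKL 1 was higher (24.1%) and 4 lower (19.8%), and the median was -0.33 against 0.02. With IFNβ 1 was higher (4.09% higher and 2.37% lower over all genes), and with IL4 2 were lower (6.46% lower and 6.63% higher over all genes). On total counts 5 members were called higher with KLA (Myd88, Irak2, Irak3, Tbk1 and Ikbke), 4 higher and 1 lower with poly I:C, and with IFNβ Ticam1 was not called (0.54). Of all 13407 genes, 1846 were then called higher and 7347 lower with KLA. The counts were 1762 and 6930 with poly I:C and 452 and 576 with IFNβ. These 5 comparisons share the WT_Veh libraries.

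**Figure D1:**
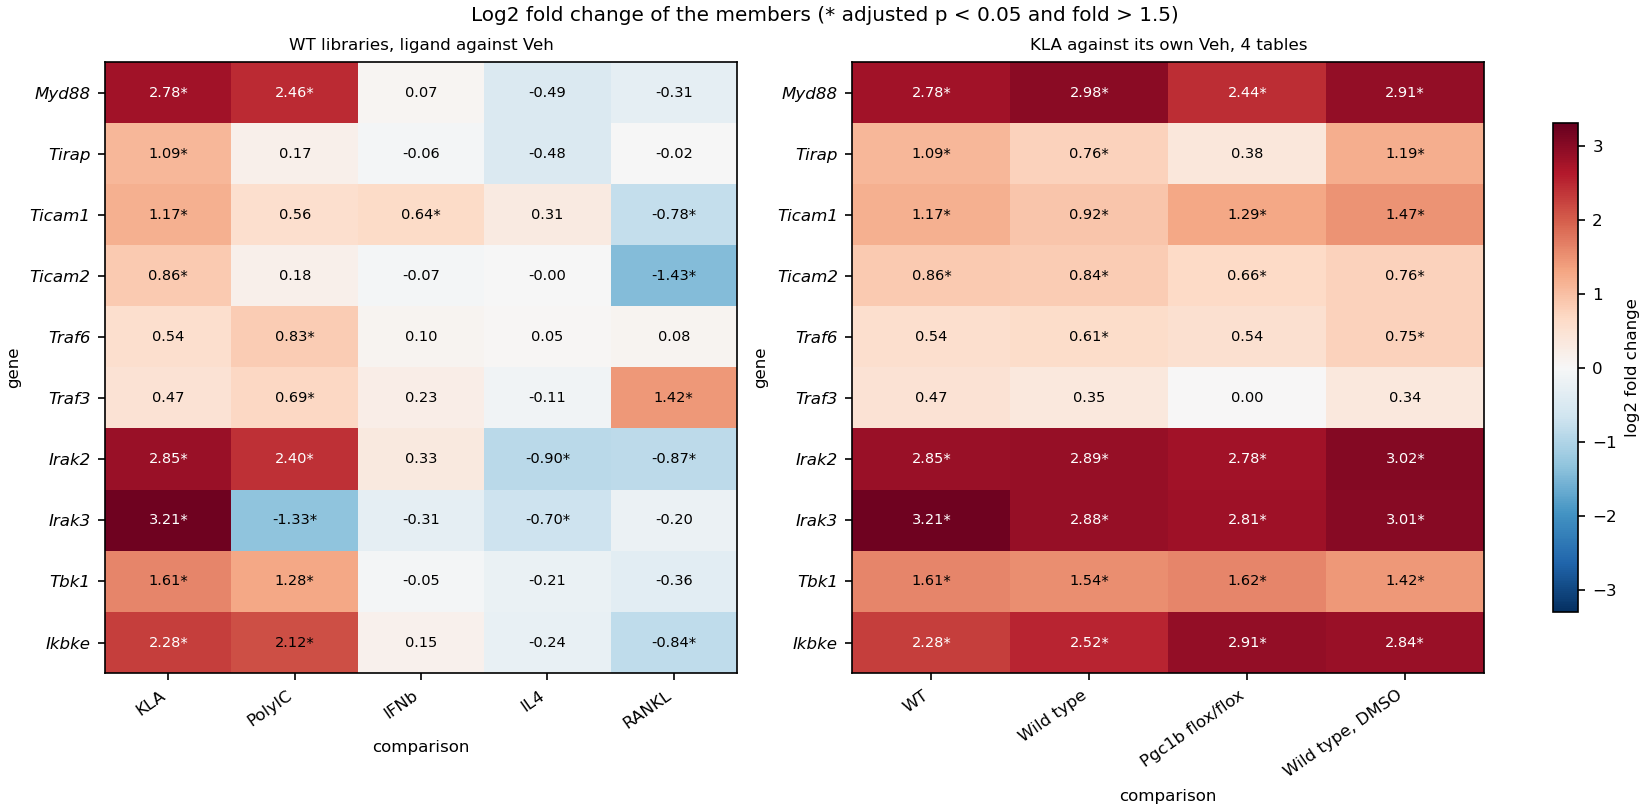
Log2 fold changes of the 10 genes (rows) for each ligand against vehicle in WT BMDMs (left) and for KLA against its own vehicle in the 4 tables (right), from red (higher) to blue (lower), with an asterisk on called values. KLA and poly I:C give the red columns, with Irak3 red for KLA (3.21) and blue for poly I:C (-1.33). Values are on the TMM scale, and on total counts Traf6 (-0.19) and Traf3 (-0.26) with KLA and Tirap, Ticam1 and Ticam2 with poly I:C are below 0.

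Myd88 (chr9:119335988-119340040, minus strand), the adaptor shared by most TLRs and the IL-1 receptor, rose with both TLR ligands. Its level was 72.6 and 83.3 CPM with vehicle, 529 and 540.4 with KLA and 429 and 426 with poly I:C. The other ligands gave 79.1 and 84.8 CPM with IFNβ, 57.2 and 54.1 with IL4 and 59.8 and 66.4 with RANKL, all far below the KLA and poly I:C libraries. The log2 fold changes (± SE) were 2.78 ± 0.061, adjusted p = 4.23e-45 for KLA and 2.46 ± 0.061, adjusted p = 2.25e-42 for poly I:C, and neither pair of libraries overlapped vehicle. IL4 gave -0.49 ± 0.067 and RANKL -0.31 ± 0.065, both short of the fold limit. Myd88 overlaps Acaa1a on the opposite strand over 9.09% of its exon bases, and Tirap overlaps Gm39318 over 9.45%. No strand option is named in the counting, so reads there cannot be assigned with certainty. Irak2, Irak3 and Ikbke overlap opposite-strand genes over 0.229% to 4.44% of their exon bases.

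Tirap (chr9:35184391-35199905, minus strand), the bridge between TLR4 and MYD88, rose with KLA and was not called with any other ligand. It was at 28.2 and 33.7 CPM with vehicle, 63.7 and 68.2 with KLA and 33.5 and 36.1 with poly I:C. With the other ligands it was at 29.9 and 29.3 CPM with IFNβ, 21.2 and 23.4 with IL4 and 33.4 and 27.7 with RANKL. KLA gave 1.09 ± 0.097, adjusted p = 1.60e-15, and its 2 libraries lay above all others of the WT series. On total counts the KLA value was 0.36, not called, and the poly I:C value -0.48. Poly I:C libraries did not separate fully from vehicle (0.17 ± 0.10), and IL4 gave -0.48 ± 0.10, which was -0.60 and called without WT_Veh replicate 1.

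Ticam1 (chr17:56269462-56276767, minus strand), the adaptor of TLR3 and of the endosomal TLR4 pathway, rose with KLA and IFNβ and fell with RANKL. Levels were 44.0 and 49.1 CPM with vehicle, 108 and 102 with KLA and 66.8 and 70.4 with poly I:C. They were 74.2 and 71.0 CPM with IFNβ, 57.2 and 58.2 with IL4 and 26.4 and 28.0 with RANKL, so every IFNβ library lay above vehicle and every RANKL library below. The differences were 1.17 ± 0.078, adjusted p = 8.57e-21 for KLA, 0.64 ± 0.073, adjusted p = 1.71e-10 for IFNβ and -0.78 ± 0.083, adjusted p = 1.99e-12 for RANKL. In the main fit IFNβ is the only ligand besides KLA that raised it past the fold limit, and without WT_Veh replicate 1 the IFNβ value was 0.56 and no longer called. On total counts neither was called, with 0.45 for KLA and 0.54 for IFNβ, and poly I:C gave -0.086. On the TMM scale poly I:C gave 0.56 ± 0.079, below the limit, and was called without WT_Veh replicate 2 (0.64) or WT_PolyIC replicate 1 (0.59). It was also called, at 0.60 each, with DESeq2's size factors or test and in a fit of only the compared groups.

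Ticam2 (chr18:46558231-46574533, minus strand), which links TLR4 to TICAM1, rose with KLA and fell with RANKL. Levels were 47.2 and 56.5 CPM with vehicle, 90.4 and 98.2 with KLA and 54.8 and 62.7 with poly I:C. With the other ligands they were 50.6 and 48.3 CPM with IFNβ, 51.2 and 52.3 with IL4 and 21.1 and 17.2 with RANKL. The fall with RANKL (-1.43 ± 0.091, adjusted p = 3.88e-21) was the largest among the members in that comparison, while the rise with KLA was 0.86 ± 0.082, adjusted p = 3.43e-14. On total counts KLA gave 0.13, not called, and poly I:C -0.46 against 0.18. Ticam2 shares 17.3% of its exon bases with Tmed7 on the same strand, so its counts are less certain than those of the others.

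Traf6 (chr2:101678420-101701668, plus strand), the ubiquitin ligase common to MYD88 and RANK signalling, was called with poly I:C alone in the main fit. It was at 36.7 and 38.2 CPM with vehicle, 50.1 and 59.0 with KLA and 62.9 and 70.6 with poly I:C. The remaining ligands gave 39.2 and 41.0 CPM with IFNβ, 36.6 and 40.7 with IL4 and 40.9 and 38.3 with RANKL. Poly I:C raised it (0.83 ± 0.083, adjusted p = 1.27e-13), whereas KLA gave 0.54 ± 0.091, adjusted p = 3.58e-07, without reaching the fold limit although its libraries did not overlap vehicle. Both depend on the scaling, with 0.19 for poly I:C (not called) and -0.19 for KLA, a change of sign, on total counts. Without WT_KLA replicate 1 the KLA value was 0.65 and called. With DESeq2's size factors or test the KLA value was 0.61 and called. RANKL, whose receptor uses TRAF6, left it at 0.08 ± 0.082.

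Traf3 (chr12:111166370-111267155, plus strand), which is needed for interferon induction through TICAM1 and restrains the noncanonical NF-κB pathway, was the member that rose with RANKL. It was at 29.8 and 35.6 CPM with vehicle, 40.1 and 50.3 with KLA and 51.7 and 53.5 with poly I:C. With the remaining ligands it stood at 37.0 and 39.7 CPM with IFNβ, 30.4 and 30.1 with IL4 and 88.9 and 86.1 with RANKL, and both RANKL libraries lay above every other WT library. RANKL gave 1.42 ± 0.080, adjusted p = 8.04e-24 and poly I:C 0.69 ± 0.091, adjusted p = 1.22e-09, the latter 0.56 and not called without WT_Veh replicate 1. On total counts RANKL was still called, poly I:C gave 0.041, not called, and KLA changed sign to -0.26. On the TMM scale KLA gave 0.47 ± 0.099, and 0.60 and 0.62, both called, without WT_Veh replicate 2 and WT_KLA replicate 1.

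Irak2 (chr6:113638467-113695027, plus strand), a MYD88-bound IRAK that sustains TRAF6 activation, was among the strongest responders. Its level was 67.7 and 66.7 CPM with vehicle, 473 and 497 with KLA and 353 and 358 with poly I:C. It was 81.9 and 87.4 CPM with IFNβ, 37.3 and 34.8 with IL4 and 35.8 and 38.0 with RANKL. KLA gave 2.85 ± 0.059, adjusted p = 2.65e-46 and poly I:C 2.40 ± 0.059, adjusted p = 1.99e-42, both with libraries far above vehicle. It fell with IL4 (-0.90 ± 0.070, adjusted p = 4.75e-17) and with RANKL (-0.87 ± 0.068, adjusted p = 2.04e-17).

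Irak3 (chr10:120141648-120201597, minus strand), the inhibitory IRAK, moved in opposite directions with the 2 TLR ligands. It was at 31.3 and 34.4 CPM with vehicle, 292 and 316 with KLA and 12.0 and 14.2 with poly I:C, so that the poly I:C libraries lay below vehicle and the KLA libraries above. The rest gave 26.6 and 26.6 CPM with IFNβ, 20.3 and 20.3 with IL4 and 27.6 and 29.6 with RANKL. KLA gave 3.21 ± 0.071, adjusted p = 7.82e-45 and poly I:C -1.33 ± 0.11, adjusted p = 8.00e-17, and IL4 gave -0.70 ± 0.090, adjusted p = 2.67e-09. The KLA and poly I:C responses were not tested against each other. KLA libraries carry another date stamp than the vehicle libraries, and in the 3 other tables, where they share one, Irak3 rose by 2.88, 2.81 and 3.01 on the log2 scale.

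Tbk1 (chr10:121546456-121586794, minus strand) and Ikbke (chr1:131254602-131279563, minus strand) encode the kinases that phosphorylate IRF3, and they rose together. Tbk1 was at 91.3 and 97.8 CPM with vehicle, 279 and 299.8 with KLA and 225 and 234 with poly I:C. Its other levels were 88.7 and 93.7 CPM with IFNβ, 78.3 and 84.8 with IL4 and 72.0 and 75.5 with RANKL. Ikbke, which is inducible by NF-κB, was at 129 and 142 CPM with vehicle, 644 and 677 with KLA and 575 and 607 with poly I:C and at 153 and 147 CPM with IFNβ, 111 and 118 with IL4 and 73.2 and 78.8 with RANKL. For KLA Tbk1 gave 1.61 ± 0.060, adjusted p = 5.26e-33 and Ikbke 2.28 ± 0.056, adjusted p = 1.37e-42. For poly I:C the values were 1.28 ± 0.060, adjusted p = 5.46e-28 and 2.12 ± 0.056, adjusted p = 5.14e-41. With RANKL Ikbke fell (-0.84 ± 0.059, adjusted p = 2.27e-19) and Tbk1 was -0.36 ± 0.063, short of the fold limit.

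**Figure D2:**
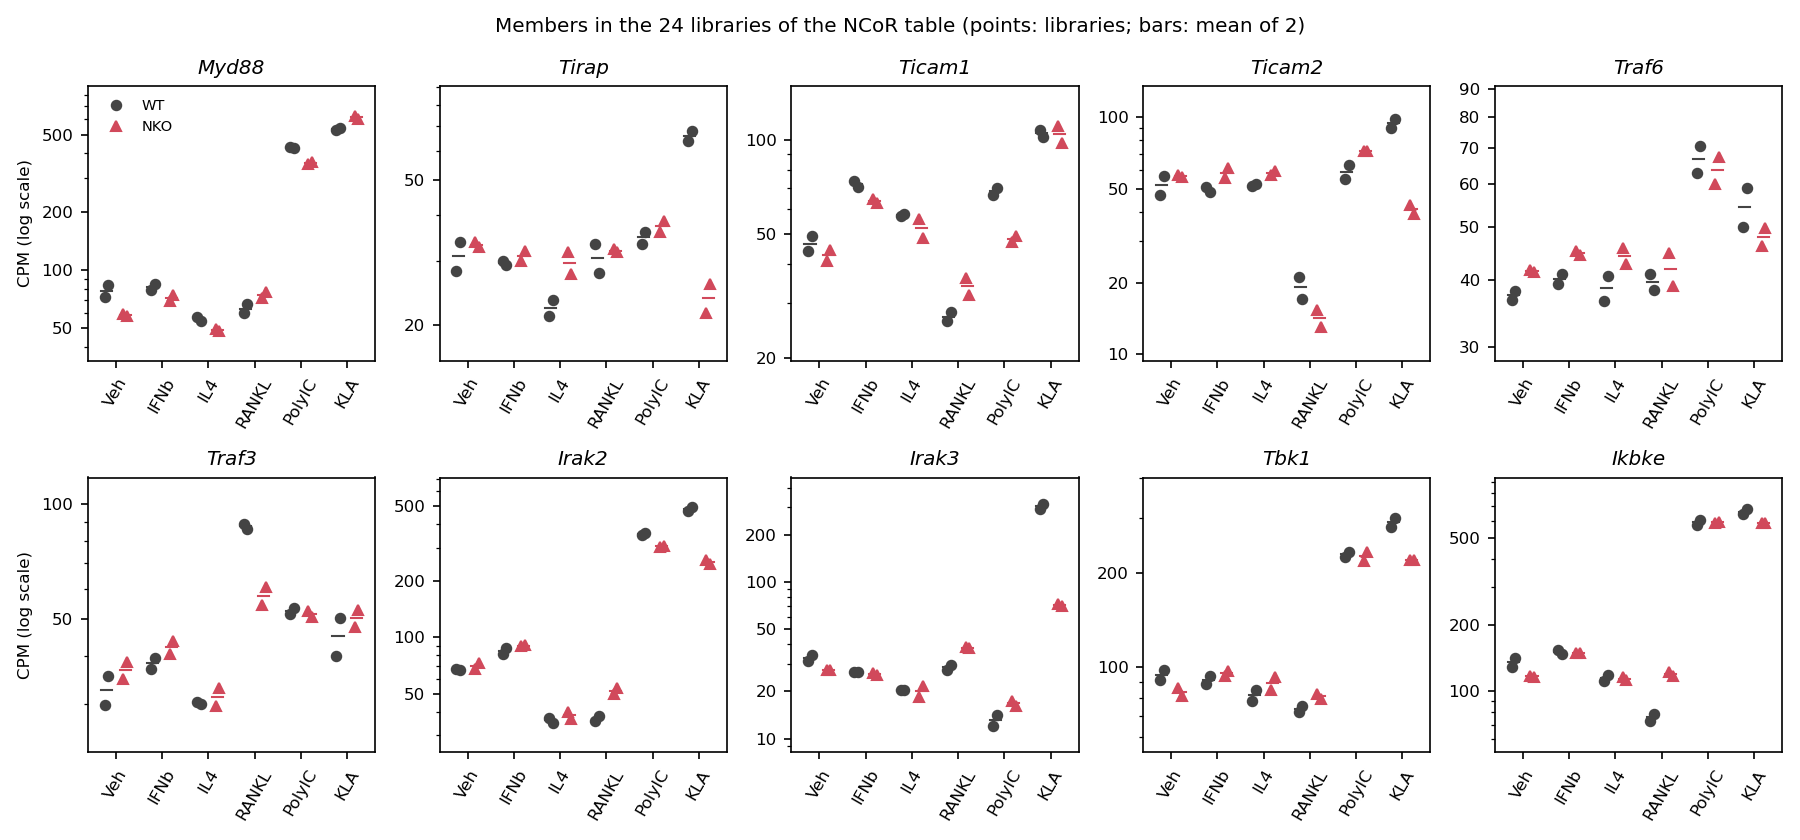
CPM on a log scale for each gene in the 24 libraries of the NCoR table, by ligand, with WT as circles, NKO as triangles and bars at the mean of 2. Myd88, Irak2, Tbk1 and Ikbke stand higher with KLA and poly I:C than with the other ligands, while Irak3 stands high with KLA and low with poly I:C.

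Poly I:C was also compared with IFNβ, which poly I:C induces through TLR3, to see which differences remain against that cytokine. 5 of 10 members were higher with poly I:C (20.5% of all genes) and 1 lower (21.5%), with a median log2 difference of 0.60 against -0.05. Myd88 (2.39 ± 0.060, adjusted p = 1.18e-41), Irak2 (2.07), Ikbke (1.97), Tbk1 (1.33) and Traf6 (0.74) were the higher ones and Irak3 (-1.02 ± 0.11, adjusted p = 5.27e-12) the lower. Ticam1, at 66.8 and 70.4 CPM with poly I:C and 74.2 and 71.0 with IFNβ, gave -0.08 ± 0.075, adjusted p = 0.353. On total counts Traf6 was 0.20 and no longer called, Ticam1 was -0.62 and called lower, and Tirap (-0.31), Ticam2 (-0.29) and Traf3 (-0.0825) changed sign without a call.

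The KLA response was measured against vehicle in 3 further control sets, and 7 members were called higher in all 4, Myd88, Ticam1, Ticam2, Irak2, Irak3, Tbk1 and Ikbke. The share of all genes called higher in all 4 was not computed. Of the 10 members, 9 were higher in the RGFP966 table (27.9% higher and 32.2% lower over all 12196 genes), in Pgc1b flox/flox 7 (22.8% and 25.7% of 12205) and with DMSO 9 (29.6% and 29.3% of 12332). The medians were 1.23, 1.45 and 1.45, against -0.07, -0.05 and 0.02 over all genes. On total counts, where medians over all genes moved by -0.77, -0.69 and -0.78, the counts of members called higher were 5, 6 and 6. All genes called higher and lower there were 1796 and 7013 of 12196, 1493 and 6560 of 12205, and 1784 and 6795 of 12332. On that scale Myd88, Irak2, Irak3, Tbk1 and Ikbke were the 5 members called higher in all 4 tables, again without a computed share of all genes. Ticam2 was then 0.073, -0.033 and -0.015, and Ticam1 0.15, 0.59 and 0.69, not called in the RGFP966 table. Irak2 went from 54.9 and 49.9 CPM to 389 and 387, from 61.3 and 60.5 to 423 and 411 and from 67.4 and 71.4 to 579 and 547, with log2 values of 2.89, 2.78 and 3.02 beside 2.85 in WT. Ikbke varied more, from 2.28 in the NCoR table to 2.91 in Pgc1b flox/flox, where vehicle stood at 71.3 and 65.3 CPM against 129 and 142 in WT_Veh, a difference across separately counted tables. Tirap was 0.76 in the RGFP966 table, 1.19 with DMSO and 0.38 ± 0.11 in Pgc1b flox/flox, the last not called, and -0.0037, 0.41 and -0.31 on total counts, none of them called. Traf3 stayed under the limit in each, at 0.35, 0.00 and 0.34, and was -0.42, -0.69 (called lower) and -0.44 on total counts. Traf6 was called in the RGFP966 table (0.61) but not without its Veh replicate 1 (0.53) or with another low-count filter (0.50 and 0.55), and with DMSO (0.75), and was -0.15 and -0.028, not called, on total counts. Ticam2 in Pgc1b flox/flox (0.66) was 0.53 and not called without Pgc1b flox/flox KLA replicate 1.

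NKO cells were compared with WT under each ligand to ask whether loss of NCoR alters these genes. With vehicle, poly I:C, IFNβ and IL4 no member was called by edgeR or by DESeq2. The numbers at an unadjusted p under 0.05 were 4, 5, 4 and 4 of 10, against 30.1%, 30.1%, 23.7% and 28.4% of all genes. Over all genes 2.40%, 3.01%, 1.86% and 1.90% were called higher (adjusted p and fold limit) and 3.80%, 2.92%, 1.94% and 2.33% lower. The largest sizes in these were -0.41 (Myd88, vehicle), -0.51 (Ticam1, poly I:C), 0.24 (Ticam2, IFNβ) and 0.41 (Tirap, IL4) on the log2 scale. Myd88 with vehicle was 59.5 and 57.9 CPM in NKO and 72.6 and 83.3 in WT, without overlap.

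With KLA 4 of 10 members were lower in NKO (19% of all genes lower, 21% higher) and the other 6 were not called, with a median of -0.29 against 0.07 over all genes. Irak3 was 72.2 and 69.8 CPM in NKO and 292 and 316 in WT (-2.10 ± 0.067, adjusted p = 2.58e-35). Tirap was 21.6 and 25.9 against 63.7 and 68.2 (-1.48 ± 0.10, adjusted p = 3.19e-19). These libraries also lay below the vehicle libraries of both genotypes, a comparison that was not tested. Ticam2 was 42.8 and 39.1 against 90.4 and 98.2 (-1.20 ± 0.088, adjusted p = 2.24e-18) and Irak2 258 and 246 against 473 and 497 (-0.95 ± 0.054, adjusted p = 2.87e-23). The groups did not overlap in any of these 4, and the share of all genes without overlap was not computed. Endothelial markers summed to 76.9 and 85.2 CPM in NKO_KLA against 187 and 199 in WT_KLA, and fibroblast markers to 5.91 and 8.16 against 0.655 and 1.17. Myd88 was 628 and 605 against 529 and 540.4 (0.21 ± 0.054), and Tbk1 (-0.40 ± 0.058) and Ikbke (-0.18 ± 0.052) were under the fold limit. Relative to vehicle the response of NKO differed from that of WT for Tirap (-1.58 ± 0.14), Ticam2 (-1.32 ± 0.12), Irak2 (-1.01 ± 0.083), Irak3 (-1.84 ± 0.11) and, upwards, Myd88 (0.62 ± 0.085), against 36.9% of all genes called in this test of the difference. The Myd88 difference was 0.52 without WT_Veh replicate 2 and 0.58 with DESeq2's size factors or test, and not called in any of these.

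NKO_KLA was also set against each KLA control of the other tables in a joint fit of 10864 genes, since its stamp and sex differ from WT_KLA. Tirap, Irak2 and Irak3 were called lower against every control, and the share of all genes called lower against all 4 was not computed. These 4 comparisons share the same 2 NKO_KLA libraries. Members called lower numbered 4 against WT_KLA (22.9% of all genes), 4 against KLA (23.9%), 4 against DMSO_KLA (22.5%) and 3 against Pgc1b flox/flox KLA (21.1%), with 20.4%, 23%, 19.2% and 16.2% of all genes called higher. For Irak3 the log2 difference was -2.15 against WT_KLA, -1.78 against KLA, -2.01 against DMSO_KLA and -1.33 against Pgc1b flox/flox KLA. Tirap ran from -1.09 to -1.66 and Irak2 from -0.78 to -1.23. Ticam2 was lower against 3 controls and was -0.52 against Pgc1b flox/flox KLA, whose libraries share the sex of NKO_KLA. There Myd88 was 0.68 and called higher. Tables were counted separately, and table, stamp and genotype cannot be told apart in these comparisons.

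With RANKL 1 member was higher in NKO (6.21%) and 1 lower (6.99%). Ikbke was 122 and 117 CPM in NKO and 73.2 and 78.8 in WT (0.65 ± 0.061, adjusted p = 1.61e-13), without overlap, and 0.55, not called, on total counts. Traf3, the member that RANKL raised in WT, was 54.4 and 60.5 against 88.9 and 86.1 (-0.61 ± 0.077, adjusted p = 2.26e-09), and was -0.53 and not called without NKO_RANKL replicate 1. The RANKL response itself differed between genotypes for Ikbke (0.87 ± 0.083), Traf3 (-0.78 ± 0.12), Irak3 (0.67 ± 0.12) and Myd88 (0.64 ± 0.094), against 14.2% of all genes, and the Myd88 value was 0.54 and not called without WT_Veh replicate 2. Neutrophil markers were higher in the NKO_RANKL libraries than in WT_RANKL, as given above. A genotype difference in cell mix or preparation cannot be told apart here from one in the RANKL response. The other differences between responses gave 1 member for poly I:C (Irak3, 0.62 ± 0.15, 3.24% of all genes) and none called by edgeR or DESeq2 for IFNβ (0.604%) and for IL4 (0.604%), where 3 and 4 members had an unadjusted p under 0.05, against 12.2% and 16.9% of all genes. Irak3 under poly I:C was 17.4 and 16.2 CPM in NKO and 12.0 and 14.2 in WT, and the call was lost with DESeq2's size factors or test (0.58 in both) and on leaving out any of 3 libraries, WT_Veh replicate 2 (0.55), WT_PolyIC replicate 1 (0.50) or NKO_PolyIC replicate 1 (0.56).

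**Figure D3:**
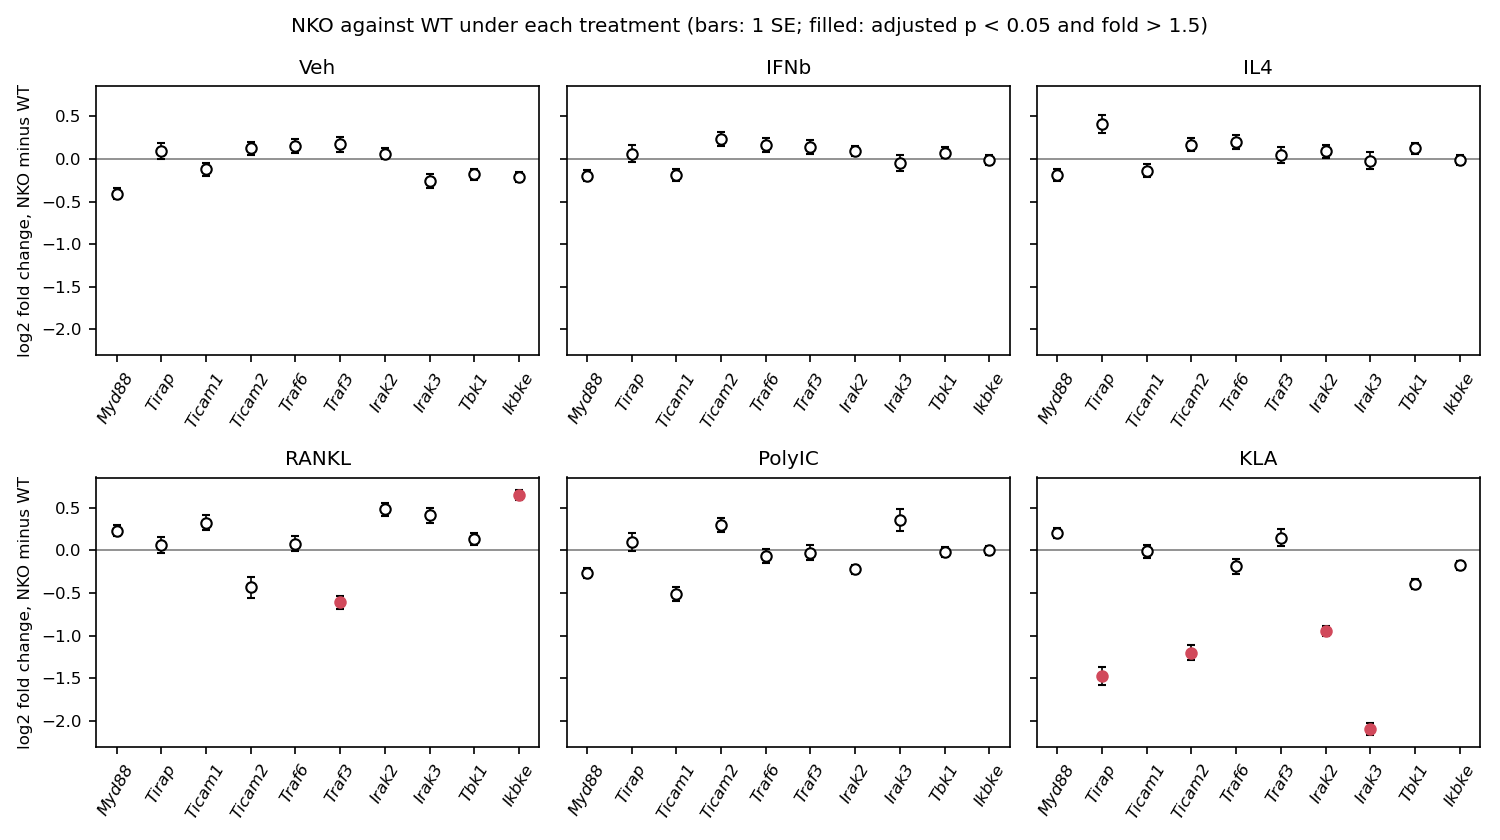
Log2 fold changes of NKO against WT for each gene and ligand, with error bars as the SE. Tirap, Ticam2, Irak2 and Irak3 with KLA lie farthest below 0, from -0.95 to -2.10.

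RGFP966 was used with KLA to ask what HDAC3 activity contributes. No group had RGFP966 without KLA, so a change in basal level cannot be told apart from a change in the KLA response. RGFP966 with KLA lowered 1 of 10 members (9.54% of all genes lower, 15.8% higher). Myd88 was 229 and 242 CPM with the inhibitor and 458 and 440.1 with KLA alone (-0.93 ± 0.059, adjusted p = 4.48e-24), still above vehicle at 60.6 and 53.3. Ikbke (-0.39 ± 0.056), Irak2 (-0.36 ± 0.058) and Ticam2 (0.41 ± 0.073) did not reach the fold limit. Replicate 2 of RGFP966_KLA carries a stamp 14 days after the rest of its table, and neutrophil markers summed to 20.3 and 21.8 CPM against 4.49 and 5.11 with KLA alone. Endothelial markers summed to 39.1 and 40.7 CPM against 121 and 144.

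Among the libraries labelled Pgc1b flox/flox, LysMCre, none of the members was called against Pgc1b flox/flox with vehicle, by edgeR or DESeq2 (0.164% of genes higher, 0.139% lower), and 2 had an unadjusted p under 0.05, against 9.97% of all genes. With KLA 3 members were lower in the libraries labelled Pgc1b flox/flox, LysMCre (12.9% of genes lower and 13.2% higher). Myd88 was 200.1 and 201 CPM against 376 and 365 (-0.89 ± 0.070, adjusted p = 4.22e-13), Irak3 88.1 and 84.3 against 166 and 179 (-1.0 ± 0.089, adjusted p = 8.86e-12) and Tbk1 152 and 157 against 266 and 278 (-0.82 ± 0.072, adjusted p = 6.47e-12). None of these pairs overlapped, and the share of all genes without overlap was not computed. Endothelial markers summed to 16.5 and 19.3 CPM against 102 and 113. Traf3 was higher by 0.58 ± 0.10, just short of the limit, at 66.6 and 68.6 against 45.5 and 45.0 CPM, and it was called on total counts (0.78) and (0.60 to 0.62) without either Pgc1b flox/flox KLA replicate or without the LysMCre KLA replicate 1. The KLA response differed for Myd88 (-0.85 ± 0.10), Irak3 (-0.89 ± 0.14), Tbk1 (-0.65 ± 0.10) and Traf3 (0.68 ± 0.14), against 22.8% of all genes. On total counts the Tbk1 value was -0.43, not called, and Tirap was called at 0.64 against 0.41.

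The TBK1 inhibitor with KLA lowered 2 members and raised 1 (18.3% and 15.0% of all genes). No group had this inhibitor without KLA, so a change in basal level cannot be told apart from a change in the KLA response. Myd88 was 199 and 202 CPM against 467 and 460.2 with DMSO and KLA (-1.21 ± 0.046, adjusted p = 5.61e-152) and Ikbke 469.6 and 458 against 754 and 745 (-0.69 ± 0.040, adjusted p = 1.70e-66). Ticam2 rose to 149.9 and 159 from 84.4 and 80.5 CPM (0.90 ± 0.062, adjusted p = 7.79e-47). Its highest mean in any other group was 102 CPM, in RGFP966_KLA. Tables were counted and scaled separately, and this difference between groups was not tested. Tbk1, the inhibitor's target, was 163 and 167 against 233 and 250.0 CPM (-0.55 ± 0.051), under the limit except without DMSO_KLA replicate 1 (-0.61). Traf3, at 0.56 ± 0.086, was 0.75 without DMSO_KLA replicate 1 and 0.61 without TBK1i_KLA replicate 1, and called in both. On total counts, where the median over all genes moved by 0.37, Ikbke was -0.33 and not called, Traf3 was 0.93 and called higher, and Traf6 and Ticam1 changed sign (0.32 and 0.041, not called). The endothelial markers moved with the inhibitor, as given above.

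**Figure D4:**
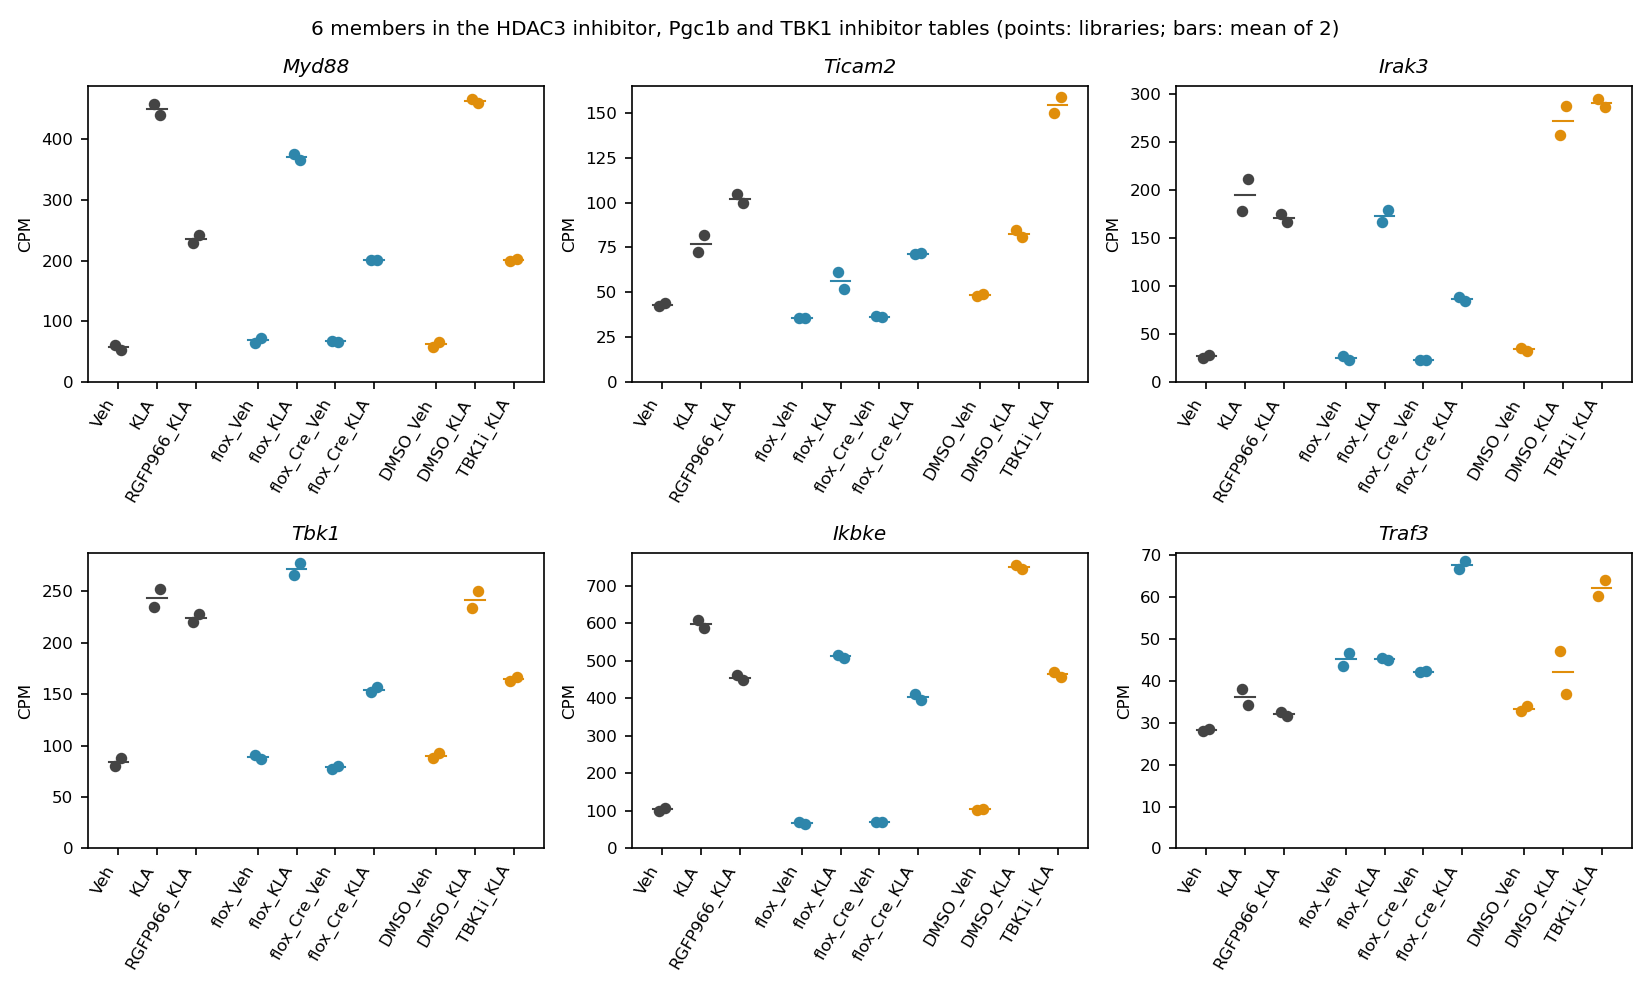
CPM of 6 genes in the groups of the RGFP966, Pgc1b and TBK1i tables, with points for libraries and bars for the mean of 2. Myd88 is lower in RGFP966_KLA, in the libraries labelled Pgc1b flox/flox, LysMCre with KLA and in TBK1i_KLA than in the KLA control of the same table, and Ticam2 is highest in TBK1i_KLA. CPM were scaled within each table, so levels in different tables are not on a common scale.

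In all 3 perturbed KLA groups outside the NCoR table (RGFP966, LysMCre and TBK1i), Myd88 was the member called lower each time. Of all genes, 9.54%, 12.9% and 18.3% were called lower in these comparisons, and the share called lower in all 3 was not computed. Irak3 was -0.19, -1.0 and 0.09 in the same order, and called in the second of these. Ticam2 was 0.41, 0.34 and 0.90, against -1.20 in NKO. The tables have different controls, and the differences between perturbations were not tested.

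Other genes of the same pathways were read from a list of 35, made of 24 partners, 4 TBK1 scaffolds and 7 brakes on signalling. Each pair of counts below, higher then lower, is set against the shares of all genes called higher and lower in that comparison. KLA raised 17 and lowered 5 of the 33 tested in the RGFP966 table (27.9% and 32.2%), 17 and 3 of 35 in Pgc1b flox/flox (22.8% and 25.7%), and 18 and 6 with DMSO (29.6% and 29.3%). In WT 17 were called higher and 9 lower with KLA (25.4% and 32.3%), 15 and 7 with poly I:C (22.2% and 25.0%), 5 and 8 with RANKL (24.1% and 19.8%), 1 and 1 with IFNβ (4.09% and 2.37%) and 1 and 2 with IL4 (6.63% and 6.46%). Traf1, a TRAF family member, rose from 11.5 to 591 CPM with KLA (5.68 ± 0.078, adjusted p = 3.14e-55), and to 90.4 with RANKL and 348 with poly I:C. Tnfaip3 (A20), which removes ubiquitin chains and restrains NF-κB, rose from 46.3 to 1949 CPM with KLA, and Peli1, a ubiquitin ligase that acts on IRAKs, from 42.2 to 791 with poly I:C. Against WT, 3 of the list were higher and 11 lower in NKO with KLA (21% and 19%), including Ube2n, which builds K63-linked ubiquitin chains with TRAF6 (-1.25), and Chuk, which encodes IKKα (-0.97). With RANKL 1 was higher and 3 lower in NKO (6.21% and 6.99%), and Traf1 was 14.0 against 90.4 CPM (-2.68 ± 0.088, adjusted p = 1.22e-33). With vehicle and with poly I:C, Traf1 was the only listed gene called in NKO, at -0.70 and -0.99. Of all genes, 3.80% and 2.92% were called lower there and 2.40% and 3.01% higher. RGFP966 gave 2 higher and 1 lower (15.8% and 9.54%), with Optn at -1.26. The libraries labelled Pgc1b flox/flox, LysMCre gave 2 higher and 3 lower with KLA (13.2% and 12.9%). TBK1i gave 5 higher and 6 lower (15.0% and 18.3%), with Peli1 falling from 659.9 to 73.9 CPM and Peli2 rising from 1.75 to 12.0.

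Patterns across the 12 groups of the NCoR table were compared by Pearson's r of group means on the log scale, over 9795 genes, as a description with no test. Tbk1 and Ikbke had the most alike patterns of any pair of members (r = 0.990), and Myd88 was near both (0.974 with Tbk1, 0.975 with Ikbke). Traf3 and Ticam2 were the least alike (r = -0.571). Outside the members, Fbxw11 (0.996) and Tnfrsf1a (0.995) were nearest to Myd88, Klf6 (0.989) and Alpk1 (0.986) to Irak2, and Agtrap and Trim21 (both 0.994) to Tbk1. Usp12 (0.993) and Agtrap (0.992) were nearest to Ikbke, and Samsn1 (0.969) and Serp1 (0.948) to Irak3. In the other 10 groups, in the other 3 tables, r was 0.986 for Fbxw11, 0.955 for Klf6, 0.987 for Agtrap with Tbk1 and 0.963 for Samsn1. Groups of a table share libraries' preparation, so r across them describes these groups only. For Traf3 the nearest gene, Lsm6 (0.945), had r = -0.622 in the other tables.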

How the data were processed

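Expression was taken from 4 tables of raw counts, deposited by the authors, of exon reads per gene in 44 BMDM libraries. Per the file headers these whole-number counts were made with HOMER on mm10, keeping 1 transcript per gene and without normalization. Alignment with STAR is named in the submitters' notes. No strand option is given in the header, although the study describes strand-specific reads. CPM (counts scaled to the total over the genes tested times the library's TMM factor) and RPKM (also per kilobase of transcript) were computed here from those counts.

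Each table was fitted with edgeR 4.0.16 in R 4.3.3 (TMM, filterByExpr by group, robust quasi-likelihood, all groups of the table). 2-sided tests were adjusted by Benjamini-Hochberg over all genes tested, 12196 to 13407 a table. DESeq2 1.42.0 was an alternative, as was scaling to total counts without the TMM factor, which was chosen after seeing the data. A call needed an adjusted p under 0.05 and a fold over 1.5. In the TBK1i table the spread prior was infinite for 10400 genes, so some p-values underflowed and are not printed. With 2 libraries a group, permutation of 1 gene cannot go below p = 0.333. The smallest count detected as present was set at 3, or 0.141 to 0.500 CPM on that scale. The pipeline was tested on simulated data. Figures used matplotlib 3.10.9 under Python 3.11.15. Members and lists were chosen with earlier results of these data known. Genes named beyond the members are the label checks, genes alike in pattern and, per comparison, the 2 called genes of the pathway list with the largest change. Promoters came from RefSeq (GRCm38.p6). Kinase protein stretches planned for printing were not used here.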

Additional observations from a re-analysis of the deposited data

Results flagged for a closer look

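In 14 cases a member's response to a ligand differed between 2 genotypes by a test of the difference itself (edgeR interaction, adjusted p under 0.05, difference over 1.5-fold). Of all genes, the same test called 36.9% for NKO by KLA, 14.2% for NKO by RANKL, 3.24% for NKO by poly I:C and 22.8% for Cre by KLA. Each value is the response of the Cre or NKO libraries minus that of their control, on the log2 scale. For KLA in NKO the values were 0.62 (Myd88, not called with DESeq2 or without WT_Veh replicate 2), -1.58 (Tirap), -1.32 (Ticam2), -1.01 (Irak2) and -1.84 (Irak3), and here genotype, stamp and sex cannot be told apart. For RANKL in NKO they were 0.64 (Myd88, not called without WT_Veh replicate 2 or WT_RANKL replicate 1), -0.78 (Traf3), 0.67 (Irak3) and 0.87 (Ikbke). Neutrophil markers summed to 389 and 414 CPM in WT_RANKL and 583 and 587 in NKO_RANKL. A genotype difference in cell mix or preparation cannot be told apart there from one in the RANKL response. For poly I:C in NKO the value was 0.62 (Irak3), which was not called with DESeq2 or on leaving out any of 3 libraries. For KLA in the libraries labelled Pgc1b flox/flox, LysMCre the values were -0.85 (Myd88), 0.68 (Traf3), -0.89 (Irak3) and -0.65 (Tbk1, not called on total counts). With 2 libraries a group, leaving a library out shows how far a value depends on it, but not which of the pair is outlying.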

How the results depend on the processing

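Of 250 values (10 members in 25 comparisons), 81 were called. Over 1044 settings of called values 5 changed sign, all on total counts, and 32 lost the call without a change of sign. Over 2236 settings of values not called, 112 changed sign, of which 17 had an adjusted p under 0.05 in either setting. Scaling to total counts, chosen after seeing the data, gave 5 members called for KLA in WT, 5 in the RGFP966 table, 0 for IFNβ and 1 for NKO_RANKL. All genes called there, higher and lower, were 1846 and 7347, 1796 and 7013, 452 and 576, and 619 and 1247. Signs changed there for WT_KLA against WT_Veh Traf6 (-0.19), Traf3 (-0.26); for WT_RANKL against WT_Veh Tirap (0.072); for WT_PolyIC against WT_Veh Tirap (-0.48), Ticam1 (-0.086), Ticam2 (-0.46); for WT_IFNb against WT_Veh Myd88 (-0.034), Traf6 (-0.0074); for WT_PolyIC against WT_IFNb Tirap (-0.31), Ticam2 (-0.29), Traf3 (-0.0825); for NKO_RANKL against WT_RANKL Tirap (-0.035), Traf6 (-0.018); for NKO_PolyIC against WT_PolyIC Traf3 (0.0099), Tbk1 (0.014); for NKO_IFNb against WT_IFNb Tirap (-0.00695); for NKO_IL4 against WT_IL4 Traf3 (-0.025); for KLA against Veh Tirap (-0.0037), Traf6 (-0.15), Traf3 (-0.42); for Pgc1b flox/flox_KLA against Pgc1b flox/flox_Veh Tirap (-0.31), Ticam2 (-0.033), Traf6 (-0.16), Traf3 (-0.69); for Pgc1b flox/flox LysMCre_Veh against Pgc1b flox/flox_Veh Ticam2 (-0.0020), Irak2 (-0.0078); for DMSO_KLA against DMSO_Veh Ticam2 (-0.015), Traf6 (-0.028), Traf3 (-0.44); for TBK1i_KLA against DMSO_KLA Ticam1 (0.041), Traf6 (0.32); for NKO by IFNb Traf6 (-0.0062). The share of higher among all genes called went from 44.0% to 20.1% for WT_KLA against WT_Veh, 47.0% to 20.3% for WT_PolyIC against WT_Veh, 63.3% to 44.0% for WT_IFNb against WT_Veh, 48.8% to 21.8% for WT_PolyIC against WT_IFNb, 47.1% to 33.2% for NKO_RANKL against WT_RANKL, 49% to 34.8% for NKO_IFNb against WT_IFNb, 44.9% to 31.2% for NKO_IL4 against WT_IL4, 65.9% to 82.7% for NKO by PolyIC, 58.0% to 47.1% for NKO by IL4, 46.4% to 20.4% for KLA against Veh, 47.1% to 18.5% for Pgc1b flox/flox_KLA against Pgc1b flox/flox_Veh, 50.6% to 68.2% for Pgc1b flox/flox LysMCre_KLA against Pgc1b flox/flox_KLA, 50.8% to 72.2% for Cre by KLA, 50.2% to 20.8% for DMSO_KLA against DMSO_Veh, 45.0% to 73.6% for TBK1i_KLA against DMSO_KLA. Signs also changed with DESeq2's size factors for WT_IL4 against WT_Veh Ticam2 (0.0061), and for NKO_PolyIC against WT_PolyIC Ikbke (-0.027), and for NKO by PolyIC Tirap (-0.032), with DESeq2's test for WT_IL4 against WT_Veh Ticam2 (0.0062), and for NKO_PolyIC against WT_PolyIC Ikbke (-0.027), and for NKO by PolyIC Tirap (-0.033), without a filter on low counts for NKO_KLA against WT_KLA Ticam1 (0.00084), and for Pgc1b flox/flox_KLA against Pgc1b flox/flox_Veh Traf3 (-0.014), with a filter on a mean of 5 CPM for WT_RANKL against WT_Veh Tirap (0.0056), and for NKO_PolyIC against WT_PolyIC Ikbke (-0.017), and for Pgc1b flox/flox_KLA against Pgc1b flox/flox_Veh Traf3 (-0.048), and for NKO by PolyIC Tirap (-0.0047), with only the compared groups for WT_IL4 against WT_Veh Ticam2 (0.011), and for NKO_PolyIC against WT_PolyIC Ikbke (-0.0010), and for Pgc1b flox/flox_KLA against Pgc1b flox/flox_Veh Traf3 (-0.0046), and for NKO by PolyIC Tirap (-0.0098), and against the KLA control of the RGFP966 table for NKO_KLA against WT_KLA Ticam1 (0.35), or of the Pgc1b table for NKO_KLA against WT_KLA Ticam1 (0.0475), Ikbke (0.14). Values that changed sign on leaving out a library, with their range over the libraries, were for WT_RANKL against WT_Veh Tirap (-0.16 to 0.12), for WT_IFNb against WT_Veh Myd88 (-0.024 to 0.17), Tirap (-0.19 to 0.071), Ticam2 (-0.19 to 0.069), for WT_IL4 against WT_Veh Ticam2 (-0.13 to 0.13), Traf6 (-0.033 to 0.12), Traf3 (-0.24 to 0.021), for NKO_Veh against WT_Veh Tirap (-0.025 to 0.23), for NKO_KLA against WT_KLA Ticam1 (-0.10 to 0.082), Traf3 (-0.00088 to 0.32), for NKO_RANKL against WT_RANKL Tirap (-0.066 to 0.21), Traf6 (-0.029 to 0.17), for NKO_PolyIC against WT_PolyIC Traf6 (-0.15 to 0.020), Tbk1 (-0.075 to 0.028), Ikbke (-0.036 to 0.042), for NKO_IFNb against WT_IFNb Ikbke (-0.042 to 0.017), for NKO_IL4 against WT_IL4 Traf3 (-0.030 to 0.13), Irak3 (-0.14 to 0.090), Ikbke (-0.050 to 0.028), for Pgc1b flox/flox_KLA against Pgc1b flox/flox_Veh Traf3 (-0.046 to 0.049), for Pgc1b flox/flox LysMCre_Veh against Pgc1b flox/flox_Veh Myd88 (-0.11 to 0.052), Traf6 (-0.00051 to 0.14), Irak3 (-0.23 to 0.018), Ikbke (-0.021 to 0.10), for NKO by KLA Traf3 (-0.18 to 0.15), Ikbke (-0.028 to 0.11), for NKO by RANKL Tirap (-0.17 to 0.11), Traf6 (-0.18 to 0.025), for NKO by PolyIC Tirap (-0.13 to 0.13), for NKO by IFNb Tirap (-0.17 to 0.088), Ticam1 (-0.15 to 0.0090), Ticam2 (-0.024 to 0.24), Traf6 (-0.018 to 0.046), Traf3 (-0.17 to 0.088), Irak2 (-0.018 to 0.093), for NKO by IL4 Ticam1 (-0.13 to 0.080), Ticam2 (-0.093 to 0.17), Traf6 (-0.024 to 0.13), Irak2 (-0.040 to 0.0905). With adjusted p alone, without the fold limit, the counts of members called, each with the share of all genes past that threshold, became 5 for IFNβ (25.4%), 7 for IL4 (31.8%) and 8 for RANKL (68.9%), and for NKO against WT 4 with vehicle (20.1%), 2 with IFNβ (13.5%), 1 with IL4 (17.1%), 5 with poly I:C (20.0%), 7 with RANKL (34.3%) and 7 with KLA (60.1%). They became 6 for RGFP966 (51.0%), 8 for the libraries labelled Pgc1b flox/flox, LysMCre with KLA (42.5%) and 8 for TBK1i (57.9%), and for the differences between responses 8 for NKO by RANKL (28.5%), 3 for NKO by poly I:C (9.88%), 1 for NKO by IL4 (3.60%) and 8 for Cre by KLA (31.9%). The NKO by poly I:C count was 0 with DESeq2's size factors and with DESeq2's test, and all genes called there split 286 higher and 148 lower, against 227 and 185 with those factors. Leaving out a library gave ranges of 0 to 1 for IFNβ, 1 to 2 for NKO_RANKL, 3 to 5 for TBK1i and 0 to 1 for NKO by poly I:C. Other losses were Myd88 for NKO by KLA (0.58 with DESeq2 or only the compared groups), Myd88 for NKO by RANKL (0.57 without WT_RANKL replicate 1) and Ticam2 for NKO_KLA (-0.52 against Pgc1b flox/flox KLA). Calls appeared for Traf6 (0.61 with DESeq2) and Traf3 (0.60 without WT_Veh replicate 2) with KLA, Ticam1 with poly I:C (0.60), Tirap with IL4 (-0.60 without WT_Veh replicate 1), and Traf3 with TBK1i (0.59 with DESeq2). Traf6 in Pgc1b flox/flox KLA (0.59 without Pgc1b flox/flox KLA replicate 2), Ticam2 for NKO by RANKL (-0.69 without WT_Veh replicate 2 or NKO_RANKL replicate 1, -0.70 without WT_RANKL replicate 2) and Ticam1 for Cre by KLA (-0.60 without LysMCre KLA replicate 1) were also called. The cause was not tested. Replicate numbers do not mark a shared animal or batch in the records, and same-numbered deviations correlated at -0.141 to 0.106 over the 4 tables, so no pairing was used. With the replicate number as a block, the count of called members was the main one in all 25 comparisons (8 with KLA, 4 for NKO_KLA). The planned protein sequence step was not run. Depth limits small differences in the low genes, Tirap, Traf3, Traf6 and Irak3.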
